A study of Mus musculus with 11 samples.

Results

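The 10 genes described here code for inflammasome parts that are known from intestinal epithelium: the sensors Naip1, Naip2, Naip5, Naip6, Nlrc4, Nlrp6 and Nlrp9b, the adaptor Pycard and the inflammatory caspases Casp1 and Casp4. They were taken by symbol from a table of 52550 genes, and all 10 were among the 15044 genes abundant enough to test. RNA came from colonic epithelial cells of 6 FFD and 5 CD mice, 1 library per mouse. FFD mice received a fiber-free diet and CD mice a diet with 7% cellulose, both for 4 weeks, and both then received 1.5% DSS (dextran sulfate sodium, a polymer that injures the colonic epithelium) for 5 days. All mice, CD mice included, were RAG1 knockouts on the C57BL/6 background, which lack mature T and B cells, so both diets were compared only in the absence of adaptive lymphocytes and after injury.

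An inflammasome is a protein platform in the cytosol that switches on caspase-1. In mice the NAIP proteins bind bacterial proteins directly, NAIP5 and NAIP6 flagellin, NAIP1 the needle and NAIP2 the inner rod of type III secretion systems, and each then recruits NLRC4. NLRP6 and NLRP9b work through the adaptor ASC, the product of Pycard, and the product of mouse Casp4, better known as caspase-11, binds lipopolysaccharide itself. Active caspases cleave gasdermin D into a membrane pore, and caspase-1 also matures interleukin-18, which in the gut comes largely from epithelial cells. NAIP and NLRC4 in epithelium are known for driving the expulsion of infected cells.

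Of the 10 genes, 8 were higher in FFD mice, 0 were lower and 2, Nlrp6 and Pycard, did not pass the test. The largest differences were in Nlrp9b (3.07-fold), Naip1 (2.10-fold) and Casp4 (1.80-fold), and the other 5 lay between 1.29-fold and 1.62-fold. For 6 genes, Naip1, Naip2, Nlrc4, Nlrp9b, Casp1 and Casp4, every FFD mouse was above every CD mouse. Over all tested genes 18.2% were higher and 18.6% lower, 36.8% in all, 8.91% had every FFD mouse above every CD mouse and 9.59% every FFD mouse below. The median log2 fold change was 0.45 over the 10 genes and -0.03 over all tested genes. Levels are CPM, the counts of a gene scaled to a common TMM-normalized library size, and diets were compared by the quasi-likelihood method of edgeR with Benjamini-Hochberg adjustment over the 15044 genes, called at an adjusted p under 0.05. At an unadjusted p under 0.05, edgeR also found 0 of the 10 genes lower, as did DESeq2 after adjustment, against 8 higher by each tool. When the mean log2 level of 15 macrophage, monocyte and neutrophil markers was added to the edgeR fit, 0 of the 10 passed as higher (6 at an unadjusted p under 0.05, smallest adjusted p = 0.070), with 9 of 10 log2 fold changes still above 0. That level was itself 0.52 log2 units higher in FFD mice, and the level and the diet cannot be fully told apart. With Ly6g left out, a choice made after seeing the data, the level of the other 14 markers was 0.40 log2 units higher. In that edgeR fit 2 of the 10 genes passed as higher, Naip1 and Casp4. Calls were lost over the whole table and not only among the 10 genes. With the 15 markers, 88 of all tested genes were higher and 7 lower, against 2740 and 2792 without a covariate. With the 14 markers, 561 were higher and 235 lower.

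**Figure D1:**
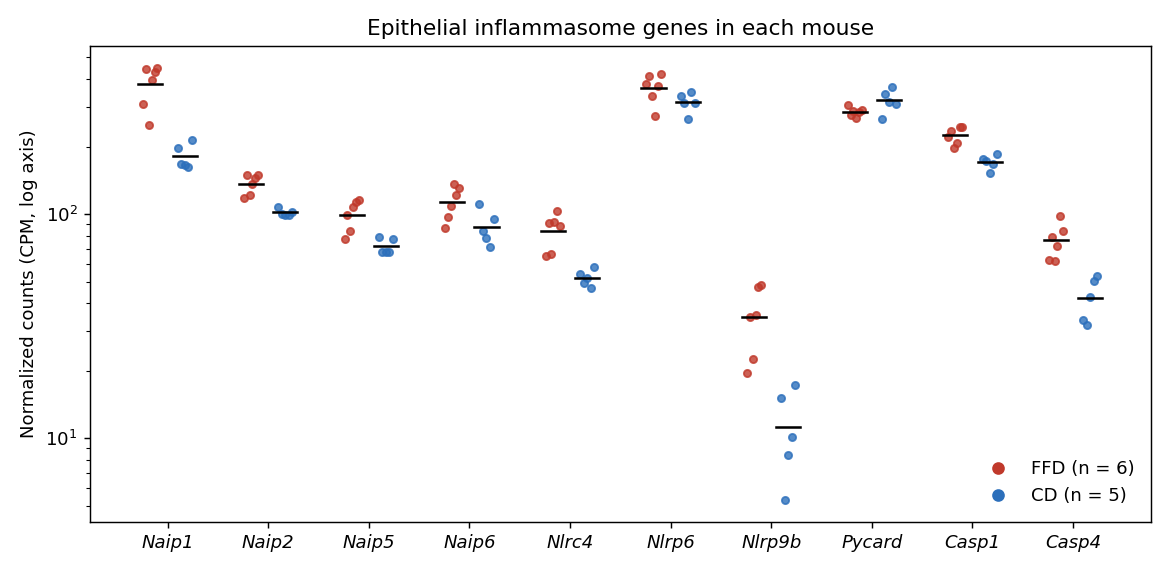
Normalized counts (CPM, log axis) of the 10 genes in each mouse, FFD mice in red left of CD mice in blue, with a black line at each mean. Red and blue points are apart for Naip1, Naip2, Nlrc4, Nlrp9b, Casp1 and Casp4, and they overlap for Naip5, Naip6, Nlrp6 and Pycard.

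**Figure D2:**
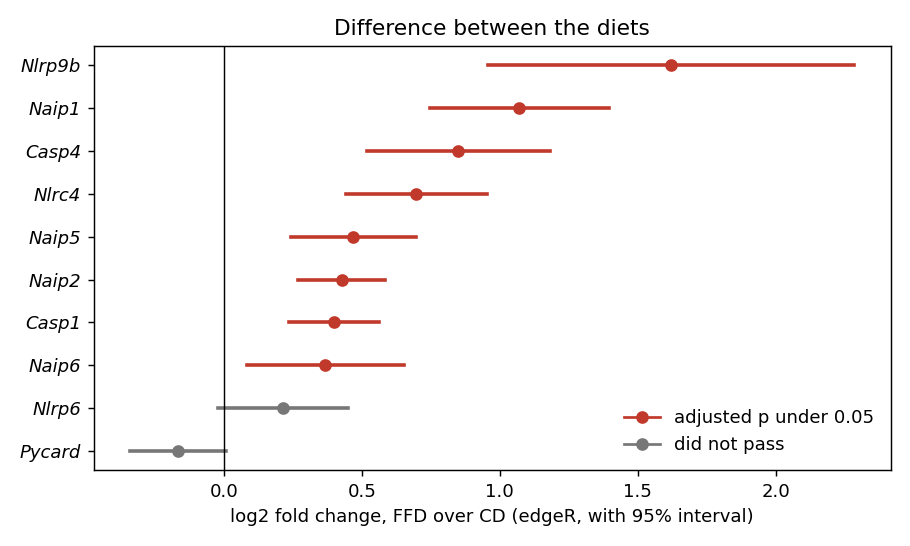
Log2 fold change of each gene, FFD over CD, from edgeR, with its 95% interval. The intervals of 8 genes (red) lie above 0, and those of Nlrp6 and Pycard (gray) include 0.

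Total counts were 10374154 to 28588266 per library, the lowest in FFD mouse 4. Epithelial transcripts dominated: 12 epithelial markers summed to between 16179 and 22325 CPM in FFD mice, against 13210 to 16134 CPM in CD mice, and 7 of the 12 were higher and 1, the stem cell marker Lgr5, was lower in FFD mice. The summed level of 11 macrophage and monocyte markers was 26.9 to 40.6 CPM in FFD and 21.9 to 28.6 CPM in CD mice, with Ptprc, C1qb and Mrc1 higher. The other 8 did not pass, with log2 fold changes from -0.42 (Adgre1) to 0.44 (Lyz2), and Cx3cr1 was also below 0 (-0.16). That of 7 neutrophil markers was 67.0 to 225 CPM in FFD and 24.0 to 65.4 CPM in CD mice, most of it from Ly6g (153 ± 64.1 CPM, SD, n = 6, in FFD and 33.5 ± 16.3 CPM, SD, n = 5, in CD mice). Of the 4 neutrophil markers that were tested, Ly6g and S100a8 were higher, S100a8 with 2.46 ± 1.70 CPM in FFD and 0.877 ± 0.495 CPM in CD mice (log2 fold change 1.51, edgeR adjusted p = 0.031). S100a9, with 2.59 ± 1.34 CPM in FFD and 1.42 ± 0.767 CPM in CD mice, and Csf3r, with 0.795 ± 0.125 CPM in FFD and 0.699 ± 0.211 CPM in CD mice, did not pass. The untested Cxcr2, Mmp8 and Retnlg averaged 0.276, 0.0956 and 0.306 CPM in FFD mice, against 0.293, 0.0559 and 0.268 CPM in CD mice. All other neutrophil markers were thus far below Ly6g, and which cells the Ly6g reads came from was not tested. Without Ly6g, the macrophage, monocyte and neutrophil markers together came to 30.2 to 52.8 CPM in FFD and 24.2 to 33.2 CPM in CD mice. The 6 markers of T and B cells summed to 0.201 to 1.23 CPM in FFD and 0.876 to 1.56 CPM in CD mice, 5 dendritic cell markers to 3.97 to 6.18 CPM in FFD and 2.88 to 4.24 CPM in CD mice, and 5 stromal and endothelial markers to 1.51 to 3.63 CPM in FFD and 1.73 to 3.88 CPM in CD mice, and no listed marker was at 0 in all mice. The part of other cells in the results was not tested beyond the covariate above. In RNA of a mixed isolate, more cells of a type and more RNA per cell cannot be told apart.

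The 4 Naip genes lie side by side on the minus strand of chromosome 13 (GRCm38): Naip2 from 100144063 to 100202092, Naip5 from 100211739 to 100246323, Naip6 from 100281121 to 100317674 and Naip1 from 100407764 to 100452869. They are close copies, which matters for reads of 59 bases. Coding sequences of Naip5 and Naip6 were identical at 97.0% of aligned bases, with a longest identical run of 229 bases, and those of Naip1 and Naip2 at 90.3%. Of the 59-base words in the annotated transcripts, 27.0% for Naip1, 15.5% for Naip2, 31.1% for Naip5 and 17.1% for Naip6 also occurred in another gene, so reads from these stretches could have been assigned to either copy. No source used here says how such reads were counted. The 60-base coding stretches below are those in which the 4 copies could best be told apart, with the fewest differences in any pair at 4. They are exonic, from coding position 1873 to 1932 (2005 to 2064 in Naip2), and capitals mark the 20 positions that differ among the copies.
Naip1: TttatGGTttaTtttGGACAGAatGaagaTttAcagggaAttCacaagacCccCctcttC
Naip2: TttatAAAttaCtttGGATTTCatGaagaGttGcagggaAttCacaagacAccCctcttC
Naip5: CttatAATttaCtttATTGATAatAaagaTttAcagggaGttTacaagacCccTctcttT
Naip6: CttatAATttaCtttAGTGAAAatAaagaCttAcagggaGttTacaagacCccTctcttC

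Naip1, the needle sensor, had the highest level per kilobase of exon among the Naip genes in both diets and the largest difference of the 4. Naip1 had 310.3, 446, 249, 397, 432 and 451 CPM in FFD mice 1 to 6, against 197, 167, 165, 162 and 215 CPM in CD mice 1 to 5. The lowest FFD mouse, mouse 3, was above the highest CD mouse, mouse 5. Its mean was 381 ± 83.0 CPM (SD, n = 6) in FFD and 181 ± 23.6 CPM (SD, n = 5) in CD mice, a log2 fold change of 1.07 (standard error, SE, 0.15, 95% interval 0.75 to 1.397, edgeR adjusted p = 0.00097).

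Naip2, the sensor of the inner rod, differed less but varied little among CD mice. Naip2 had 118, 149.5, 122, 136, 145 and 149 CPM in FFD mice, against 108, 100.3, 99.2, 98.6 and 102 CPM in CD mice. All FFD mice were above all CD mice, although FFD mouse 1 and CD mouse 1 were close. The means were 137 ± 13.9 CPM (SD, n = 6) in FFD and 102 ± 3.78 CPM (SD, n = 5) in CD mice, with a log2 fold change of 0.43 (SE 0.07, edgeR adjusted p = 0.0017).

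Naip5 and Naip6, the flagellin sensors and the closest pair by sequence, were higher in FFD mice but overlapped between the diets. Naip5 had 77.3, 99.2, 84.4, 108, 113 and 115 CPM in FFD mice, against 78.9, 67.5, 67.4, 67.6 and 77.8 CPM in CD mice. Only FFD mouse 1 fell within the CD range, and the log2 fold change was 0.47 (SE 0.11, edgeR adjusted p = 0.0048). Naip6 had 86.5, 97.4, 109, 136, 122 and 131 CPM in FFD mice, against 111, 84.3, 78.3, 71.6 and 94.7 CPM in CD mice. Here CD mouse 1 lay above 3 FFD mice, and the log2 fold change of 0.37 (SE 0.13, 95% interval 0.08 to 0.65) passed narrowly (edgeR adjusted p = 0.044). The Naip6 call was lost without any one of CD mice 2, 3 and 4 or FFD mice 4, 5 and 6, with adjusted p of 0.016 to 0.11 by edgeR over the 11 mice left out in turn, and without TMM (adjusted p = 0.18).

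Summing the 4 genes removes the question of which of these copies a read came from, though not reads shared with Naip3. The sum was 592, 792, 564, 777, 812 and 847 CPM in FFD mice, against 494, 419, 410.1, 400.0 and 490.1 CPM in CD mice, with no overlap. Its log2 fold change was 0.72 (SE 0.12, edgeR adjusted p = 0.0014). Naip1 took 44.1% to 56.3% of the 4 genes' counts in FFD mice (51.7% ± 4.10, SD, n = 6) and 39.8% to 43.9% in CD mice (40.9% ± 1.72, SD, n = 5). The share of Naip1 was thus higher in every FFD mouse, with FFD mouse 3 next to CD mouse 5. This share was examined after the values were seen and is given without a test. Naip3, which shares 19.1% of the words of Naip1, averaged 31.4 CPM in FFD and 19.9 CPM in CD mice.

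**Figure D3:**
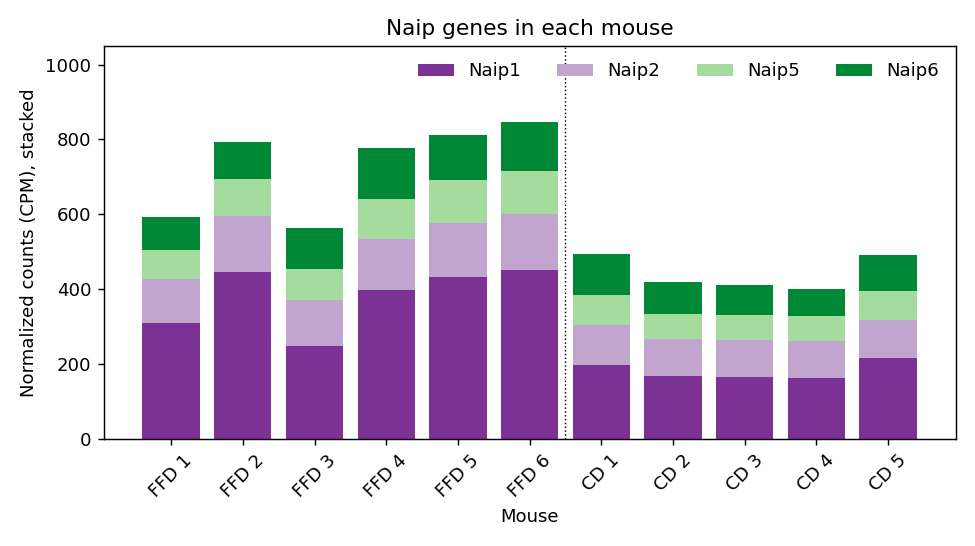
Normalized counts (CPM) of Naip1, Naip2, Naip5 and Naip6 stacked for each mouse, FFD mice left of CD mice. The stacks of FFD mice reach 564 to 847 CPM and those of CD mice 400.0 to 494 CPM, and the Naip1 segment differs most.

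The promoters of these 4 neighbors were compared by sequence, each from 250 bases before to 50 bases after the start in RefSeq for GRCm38.p6. Capitals mark words of at least 11 bases that also occur in another of the 4 windows. Naip2 and Naip5 shared 99 and 102 of 300 bases in this way, Naip1 shared 14 and Naip6 shared 0. The word CCTTTAAGAGG was the one present in 3 of them. The Naip6 window, chr13:100316567-100316866 and not printed, lies inside the gene span given above. The Naip5 window lies beyond the end of its span, whereas those of Naip1 and Naip2 cover the ends of theirs. The shared letters therefore hold for these RefSeq starts only. The printed windows are chr13:100452815-100453114 for Naip1, chr13:100202073-100202372 for Naip2 and chr13:100247287-100247586 for Naip5, all on the minus strand.
Naip1: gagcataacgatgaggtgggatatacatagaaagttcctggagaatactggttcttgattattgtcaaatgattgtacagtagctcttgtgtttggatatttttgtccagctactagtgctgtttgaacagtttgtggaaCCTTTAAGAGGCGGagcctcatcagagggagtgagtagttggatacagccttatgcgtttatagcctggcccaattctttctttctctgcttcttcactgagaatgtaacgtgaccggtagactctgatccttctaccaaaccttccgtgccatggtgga
Naip2: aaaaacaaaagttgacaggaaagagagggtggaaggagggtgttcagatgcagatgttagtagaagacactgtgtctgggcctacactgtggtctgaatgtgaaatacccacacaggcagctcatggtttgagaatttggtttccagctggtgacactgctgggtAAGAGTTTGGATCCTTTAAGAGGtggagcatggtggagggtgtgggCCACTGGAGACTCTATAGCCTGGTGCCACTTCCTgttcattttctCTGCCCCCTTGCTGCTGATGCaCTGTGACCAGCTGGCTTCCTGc
Naip5: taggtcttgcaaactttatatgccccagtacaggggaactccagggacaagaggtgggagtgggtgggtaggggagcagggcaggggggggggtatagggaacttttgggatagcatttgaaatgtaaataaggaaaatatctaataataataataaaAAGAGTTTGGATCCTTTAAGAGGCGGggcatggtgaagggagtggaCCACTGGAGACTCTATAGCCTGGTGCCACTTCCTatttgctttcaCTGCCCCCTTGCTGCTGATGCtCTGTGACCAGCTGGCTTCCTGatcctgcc

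The pair with the most sequence in common in these windows, Naip2 and Naip5, had log2 fold changes of 0.43 and 0.47, and Naip1 had 1.07. Naip6, with no shared word at its RefSeq start inside the gene, had 0.37. Whether shared promoter sequence has a part in these differences was not tested. RefSeq promoters were matched for all 10 genes and were also searched on both strands for 3 short motifs, the interferon-stimulated response element (GAAA, 2 free bases, GAAA), TTCNNNGAA of STAT elements and TGANTCA of AP-1. The first was in none of the 10 genes' windows and in 3.44% of 32851 promoters. The second was found only in Nlrp9b among the 10 genes (8.30% of all promoters) and the third only in Nlrp6 (7.81%). The Nlrp9b window, chr7:20007773-20008072, lies inside the gene, downstream of its annotated start at 19991465. A match describes letters in the window and not a bound site.

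Nlrc4, the partner that all 4 NAIP proteins recruit, was higher in FFD mice. This gene (chromosome 17, 74425438 to 74459142, minus strand) had 64.8, 91.6, 66.2, 92.5, 103 and 88.2 CPM in FFD mice, against 54.1, 49.1, 51.6, 46.9 and 58.1 CPM in CD mice. The 6 FFD mice were above the 5 CD mice, with FFD mice 1 and 3 nearest to them. Nlrc4 had a log2 fold change of 0.70 (SE 0.12, 95% interval 0.44 to 0.95, edgeR adjusted p = 0.0016). Per kilobase of exon, the 4 Naip genes together were at 7.60 ± 0.526 times the level of Nlrc4 in FFD mice (SD, n = 6) and 7.43 ± 0.343 times in CD mice (SD, n = 5), with overlapping ranges of 6.89 to 8.37 in FFD and 6.96 to 7.92 in CD mice.

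Nlrp6, an ASC-dependent sensor known in the colon for its part in mucus release and antiviral defense, did not pass the test. Nlrp6 (chromosome 7, 140920902 to 140929192, plus strand) had 381, 412, 335, 274, 374 and 420.3 CPM in FFD mice, against 337, 312, 266, 349 and 315 CPM in CD mice. The diets overlapped, mainly through FFD mouse 4, which was below 4 of the CD mice. The log2 fold change of 0.21 (SE 0.11, 95% interval -0.02 to 0.45) did not pass (edgeR adjusted p = 0.14). Without FFD mouse 4, the least deeply sequenced library, it was 0.28 and passed (adjusted p = 0.030). That was the only 1 of 23 alternatives in which Nlrp6 passed.

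Nlrp9b, a sensor known in mouse intestinal epithelium for its response to rotavirus RNA, showed the largest difference of the 10 genes and had the lowest level per kilobase of exon. Nlrp9b (chromosome 7, 19991465 to 20073306, plus strand) had 19.5, 34.8, 22.6, 35.6, 47.2 and 48.1 CPM in FFD mice, against 15.05, 5.29, 8.42, 10.1 and 17.3 CPM in CD mice. CD mice alone spanned a wide range, with CD mouse 5 close to FFD mouse 1, but the diets did not overlap. The means were 34.6 ± 11.9 CPM (SD, n = 6) in FFD and 11.2 ± 4.90 CPM (SD, n = 5) in CD mice, with a log2 fold change of 1.62 (SE 0.31, 95% interval 0.96 to 2.28, edgeR adjusted p = 0.0024). In the whole table, 91 called genes had a higher log2 fold change. The paralogs Nlrp9a and Nlrp9c had 5 and 19 counts over all FFD mice and 4 and 13 over all CD mice, against 4233 in FFD and 1480 in CD mice for Nlrp9b, and 6.34% of its 59-base words occur in another gene.

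Pycard, which codes for the adaptor ASC, was the only one of the 10 genes with a negative fold change. Pycard (chromosome 7, 127989708 to 127993867, minus strand) had 308, 277, 287, 268, 286 and 292 CPM in FFD mice, against 265, 344, 318, 369 and 311 CPM in CD mice. FFD mice were close together, and CD mouse 1 was below all of them while the other CD mice were above all FFD mice. The means were 286 ± 13.8 CPM (SD, n = 6) in FFD and 321 ± 38.9 CPM (SD, n = 5) in CD mice, and the log2 fold change of -0.17 (SE 0.08, 95% interval -0.34 to 0.01) did not pass (edgeR adjusted p = 0.12). It passed as lower without CD mouse 1 (log2 fold change -0.21, adjusted p = 0.032) and without TMM (-0.32, adjusted p = 0.011). The antisense gene Gm45205 overlaps 12.8% of the exon bases of Pycard and had 24 counts over FFD and 26 over CD mice, against 36069 in FFD and 42808 in CD mice for Pycard.

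Both caspases were higher in FFD mice. Casp1, the gene of caspase-1 (chromosome 9, 5298517 to 5307265, plus strand), had 221, 235, 197, 208, 244 and 246 CPM in FFD mice, against 177, 172, 152, 168 and 185 CPM in CD mice. The spread within each diet was small and the diets did not overlap, with a log2 fold change of 0.40 (SE 0.08, 95% interval 0.24 to 0.56, edgeR adjusted p = 0.0023). Casp4, its neighbor (5308828 to 5336783), had 62.3, 79.3, 62.0, 71.8, 98.0 and 83.9 CPM in FFD mice, against 33.8, 31.9, 42.8, 50.2 and 52.7 CPM in CD mice. FFD mice 1 and 3 were nearest to the CD mice, and the log2 fold change was 0.85 (SE 0.15, 95% interval 0.52 to 1.18, edgeR adjusted p = 0.0020). The coding sequences of Casp1 and Casp4 were 56.4% identical, with a longest run of 12 bases, and 0% of the 59-base words of either gene occurred elsewhere.

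Levels between genes were compared per kilobase of annotated exon, merged over all transcripts of a gene. This length was 1497 bases for Casp1, with 1 transcript, but 3710 for Casp4, with 7 transcripts. For Pycard it was 3800 bases, nearly the whole gene. A long merged length lowers the level, so the order of the genes depends on the annotation. On this scale Casp1 was highest of the 10 genes in both diets, at 150.5 CPM per kilobase in FFD and 114 in CD mice. Pycard followed with 75.4 in FFD and 84.6 in CD mice, Nlrp6 with 72.1 in FFD and 62.2 in CD mice and Naip1 with 68.8 in FFD and 32.7 in CD mice. The ranges of Pycard, Nlrp6 and Naip1 overlapped in FFD mice, whereas in CD mice all Pycard values were above all Nlrp6 values and these above all Naip1 values. Naip2 was at 28.2 in FFD and 21.0 in CD mice, Casp4 at 20.5 in FFD and 11.4 in CD mice and Naip5 at 19.1 in FFD and 13.8 in CD mice. Nlrc4 was at 17.5 in FFD and 10.8 in CD mice, Naip6 at 16.6 in FFD and 12.9 in CD mice, and Nlrp9b was lowest at 9.29 in FFD and 3.02 in CD mice. The ranges of Casp4, Naip5, Nlrc4 and Naip6 overlapped in FFD mice, whereas in CD mice all Naip5 values were above all Nlrc4 values. The ratio of Casp4 to Casp1 per kilobase was 0.136 ± 0.0161 (SD, n = 6) in FFD and 0.100 ± 0.0225 (SD, n = 5) in CD mice, with overlapping ranges.

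The same mice stood at the ends of many genes. Among the 8 genes that passed, FFD mouse 1 was the lowest FFD mouse for 5 and FFD mouse 3 for 3, and neither was among the 3 highest FFD mice for any. FFD mouse 5 was among the 3 highest for 8 of 8 and FFD mouse 6 for 7 of 8. Among CD mice, CD mouse 5 was highest for 5 genes and CD mouse 1 for the other 3. Averaged over the 8 genes, the log2 shift from the CD mean was 0.41 in FFD mouse 1, 0.44 in FFD mouse 3, 0.81 in FFD mice 2 and 4, 0.98 in FFD mouse 5 and 0.96 in FFD mouse 6, against -0.21 to 0.23 in CD mice. The mature enterocyte marker Krt20 had a similar order, with 1030.4, 1699, 695, 1203, 1824 and 1669 CPM in FFD mice, against 571, 533, 575, 627 and 760.2 CPM in CD mice. Only FFD mouse 3 fell within the CD range of Krt20, and its log2 fold change was 1.14 (SE 0.22, edgeR adjusted p = 0.0024). The transporter gene Slc26a3, also of mature enterocytes, was at 247 CPM in FFD mouse 3 and 411 to 600.3 CPM in the other FFD mice, against 147 to 223 CPM in CD mice, with a log2 fold change of 1.34 (SE 0.20, edgeR adjusted p = 0.0011). Krt20 and Slc26a3 are among the 12 epithelial markers, of which 7 were higher, 1 was lower and 4 did not pass. One that did not pass was Car1 (log2 fold change 0.07, edgeR adjusted p = 0.81). Its lowest FFD mouse was mouse 5, at 1068 CPM. The part of enterocyte maturity in the levels of the 10 genes was not tested.

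**Figure D4:**
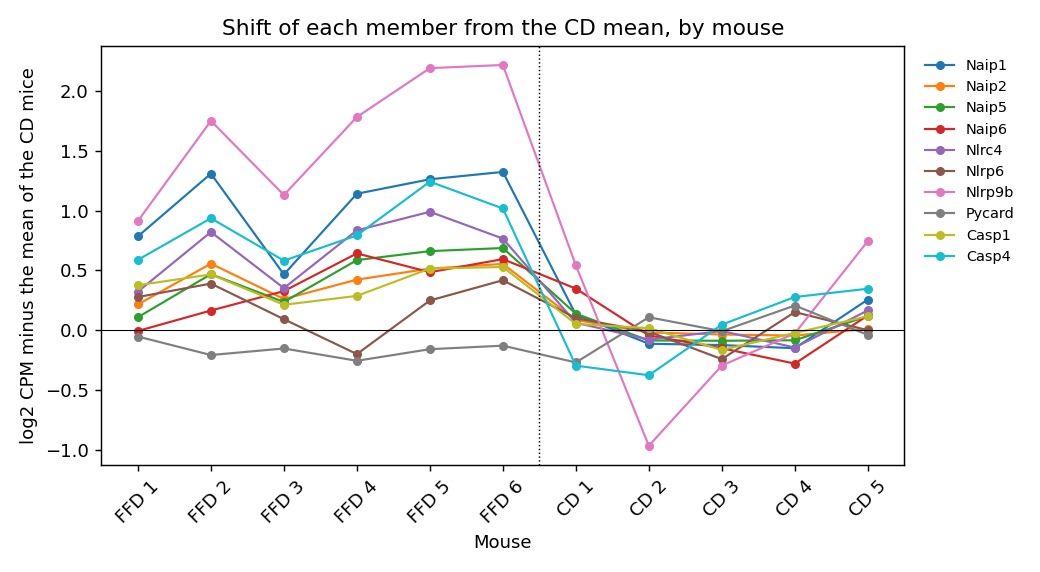
Log2 CPM of each of the 10 genes minus its mean in CD mice, for every mouse, FFD mice left of CD mice, with 1 line per gene. For each of the 8 genes that passed, FFD mouse 1 or 3 is the lowest FFD mouse and FFD mouse 5 is among the 3 highest, and the Pycard line stays below 0 in all FFD mice.

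For the 3 of the 10 genes with the smallest p, the genes with the most similar levels over the 11 mice were looked up among 11989 genes, as Pearson r of log2 CPM. Part of any such r comes from the difference between the diets, so r over the 6 FFD mice alone is given as well. The genes closest to Naip1 were Heph (r = 0.997, and 0.987 in FFD mice alone), which codes for an iron-exporting ferroxidase of enterocytes, Coro2a (0.995 and 0.992) and the glucose transporter gene Slc2a1 (0.995 and 0.987). Those closest to Nlrc4 were Dock5 (0.994 and 0.989), Atp10b (0.993 and 0.992) and F2rl1 (0.992 and 0.972), the gene of a protease-activated receptor. Those close to Naip2 included Il22ra1 (0.991 and 0.975), which codes for a chain of the interleukin-22 receptor, and the laminin chain gene Lama3 (0.988 and 0.989). All points share the same libraries, and the values are a description of these mice.

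The wider pathway was read from 5 lists with 58 other genes, of which 50 were abundant enough to test. Of the 50, 19 were higher and 5 lower in FFD mice, beside 18.2% higher and 18.6% lower over all tested genes. With the leukocyte marker covariate, 2 of the 50 passed by edgeR, both as higher. In that fit 88 of all tested genes were higher and 7 lower. Among the genes downstream of the caspases, Gsdmd and Il18 were higher in FFD mice. Gsdmd, the gene of the pore former gasdermin D, had 245, 296, 186, 271, 384 and 377 CPM in FFD mice, against 123, 115, 105, 129.8 and 170.3 CPM in CD mice. The diets did not overlap, and the log2 fold change was 1.19 (SE 0.18, edgeR adjusted p = 0.0011). Il18, the gene of the cytokine that caspase-1 matures, had 215, 256, 200.2, 290.0, 251 and 269 CPM in FFD mice, against 142, 129, 135, 134 and 176 CPM in CD mice. Again every FFD mouse was above every CD mouse, with a log2 fold change of 0.78 (SE 0.11, edgeR adjusted p = 0.00087).

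Il1b, which codes for interleukin-1 beta and is made mostly by myeloid cells, was scarce. Il1b had 6.20, 7.83, 3.72, 4.73, 7.09 and 6.36 CPM in FFD mice, against 3.70, 2.45, 4.79, 6.90 and 4.97 CPM in CD mice. The diets overlapped, and its log2 fold change of 0.40 (SE 0.25) did not pass (edgeR adjusted p = 0.23). In the list of 12 pore formers, cytokine substrates and other caspases, 5 were higher, 1 lower and 6 did not pass, with a median log2 fold change of 0.44. Besides Gsdmd and Il18, the higher ones included Casp8 (log2 fold change 0.67), the gene of a caspase that starts apoptosis. The lower one was Ninj1 (-0.39), whose product ruptures the membrane of dying cells, at 16.1 CPM in FFD and 21.1 CPM in CD mice.

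Sensors outside the 10 genes differed in both directions. Of 12 listed, 6 were abundant enough to test, of which 3 were higher, 1 lower and 2 did not pass, with a median log2 fold change of 0.31. Nlrp1b, a sensor of bacterial and viral proteases, averaged 25.5 ± 3.98 CPM (SD, n = 6) in FFD and 11.8 ± 2.58 CPM (SD, n = 5) in CD mice, with a log2 fold change of 1.11 (SE 0.15, edgeR adjusted p = 0.00086). Nlrp10 (log2 fold change 1.43) and the DNA sensor gene Aim2 (0.54) were higher as well. Nod1, a sensor of bacterial cell wall fragments that signals to NF-kB and not to caspase-1, was the lower one at 15.2 ± 2.63 CPM in FFD and 25.9 ± 5.91 CPM in CD mice (log2 fold change -0.76, edgeR adjusted p = 0.0026). Nlrp3, the sensor best known from macrophages, stood at 0.240 to 1.21 CPM in FFD and 0.360 to 0.952 CPM in CD mice and did not pass (log2 fold change 0.07, edgeR adjusted p = 0.89).

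Among 10 partners of the sensors, 1 was higher, 2 were lower and 7 did not pass, with a median log2 fold change of 0.15. Nek7, known as a partner of NLRP3, was higher (log2 fold change 0.37). Dhx15, the helicase that works with NLRP6 on viral RNA, was lower (-0.27) and so was Ripk2 (-0.45), the kinase of the Nod receptors. Dhx9, the helicase partner of NLRP9b, had 136 ± 17.2 CPM in FFD (SD, n = 6) and 146 ± 13.1 CPM in CD mice (SD, n = 5) and did not pass (log2 fold change -0.11, edgeR adjusted p = 0.39). Interferon-inducible Gbp2, whose product helps expose lipopolysaccharide to caspase-11, had 158 to 433 CPM in FFD and 69.1 to 285 CPM in CD mice and did not pass (log2 fold change 0.69, SE 0.38, edgeR adjusted p = 0.17).

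Of 10 tested cytokine receptors and brakes, 5 were higher, 1 lower and 4 did not pass, with a median log2 fold change of 0.53. Il1rn, which codes for the antagonist of the interleukin-1 receptor, averaged 84.5 ± 6.82 CPM (SD, n = 6) in FFD and 41.3 ± 8.93 CPM (SD, n = 5) in CD mice. Serpinb1a, an inhibitor of inflammatory caspases and neutrophil proteases, averaged 948 ± 207 CPM in FFD and 467 ± 68.9 CPM in CD mice, and Il18bp, the decoy of interleukin-18, 60.01 ± 23.5 CPM in FFD and 28.9 ± 9.001 CPM in CD mice. Their log2 fold changes were 1.03, 1.02 and 1.06, and all of them passed, whereas the decoy receptor gene Il1r2 did not (0.20, edgeR adjusted p = 0.74). Tnfaip3 (0.86), which restrains NF-kB signaling, and Sharpin (0.29), a subunit of a ubiquitin ligase that limits cell death, were higher too, and the receptor gene Il1r1 was lower (-0.85, edgeR adjusted p = 0.028). The Il1r1 call was lost without CD mouse 1 or 2 or FFD mouse 6, with adjusted p of 0.068, 0.086 and 0.057.

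Of 12 transcription factors linked to inflammasome genes, 5 were higher and 7 did not pass, with a median log2 fold change of 0.21. Irf7, a factor of the type I interferon response, was at 296 CPM in FFD mouse 1 and 91.6 to 148 CPM in the other FFD mice, against 33.5 to 67.2 CPM in CD mice (log2 fold change 1.59, SE 0.27, edgeR adjusted p = 0.0015). FFD mouse 1, the highest for Irf7, was the lowest FFD mouse for 5 of the 8 inflammasome genes that passed. Over the mice of both diets together, however, the Pearson r with Irf7 was positive for these 8 genes, from 0.46 (Naip6) to 0.80 (Casp1). Part of each r comes from the difference between the diets. The part of Irf7 in the levels of these genes was not tested. Stat2 (log2 fold change 0.74), Irf9 (0.40), Stat3 (0.34) and Irf2 (0.28) were higher, whereas Irf1 (0.15) and Irf8 (0.13) did not pass (adjusted p of 0.50 and 0.54 from edgeR). Without TMM, Irf2, Irf9 and Sharpin no longer passed (adjusted p of 0.21, 0.084 and 0.16).

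**Figure D5:**
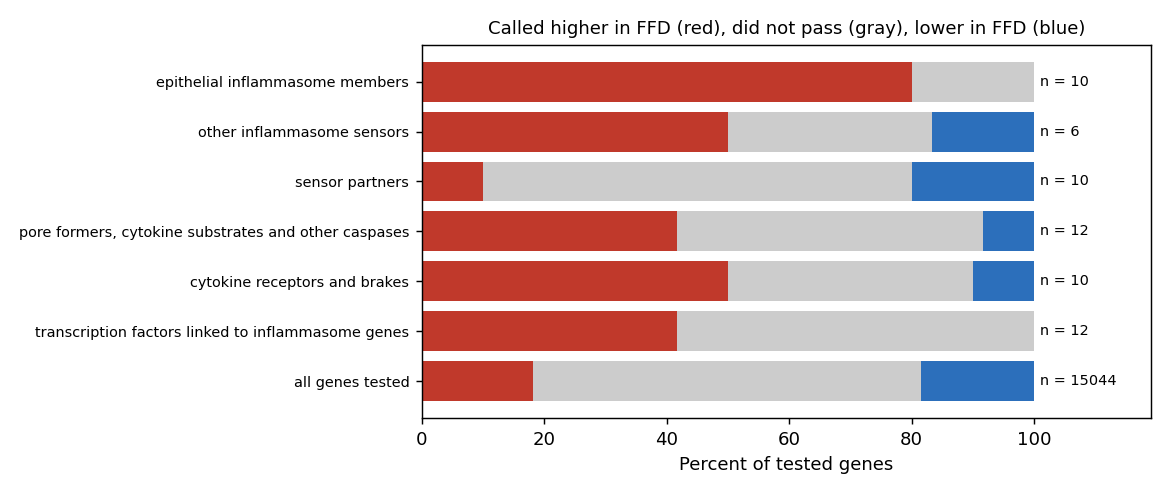
Percent of tested genes called higher in FFD mice (red), not called (gray) and called lower (blue) for the 10 genes, the 5 pathway lists and all tested genes, with the number of tested genes at the right. The 10 genes have 8 called higher, and the sensor partners have 1 of 10.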

How the data were processed

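RNA-Seq of colonic epithelial cells from 6 FFD and 5 CD mice was analysed. The authors isolated cells, selected poly(A) RNA (RNA integrity number above 8), read single 59-base reads, mapped them to GRCm38 with the CLC Workbench 10.0.1 and deposited raw counts per gene. R 3.5.1, DESeq2 1.22.2 and FastQC are in the submitters' processing notes. The annotation release and the treatment of multi-mapping reads and of strand were not stated in the sources used. Titles carry 1 number in all CD and another in all FFD samples, so a batch that followed it cannot be told apart from diet.

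Counts were filtered with filterByExpr (minimum count 10, minimum total 15), normalized by TMM and tested for diet with the quasi-likelihood test of edgeR 4.0.16 in R 4.3.3. Standard errors were the log2 fold change over the root of the F statistic. Log2 CPM for similarity used a prior count of 2. P-values measure the spread between mice, which are separate animals with 1 library each. No libraries were duplicates (smallest chi-square over its degrees of freedom 12.6).

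The genes and lists were chosen with earlier results of these data known. Named genes are the 10 genes, listed pathway genes past the threshold, Gsdmd, Il18, Il1b, the 3 genes most similar to each of 3 members (mean of at least 1 CPM, no predicted genes) and cell type markers. Nlrp3, Dhx9, Gbp2, Il1r2, Irf1, Irf8 and Naip3 were named outside this rule after their values were seen. Symbols differing in the table were matched (Gsdme as Dfna5, Irgb10 as Gm12250, Pydc3 as Ifi208, Pydc4 as Ifi213). One macrophage marker was not used here, and a few named genes are left unreported but stay in the counts. Coordinates, exon lengths and 59-base words came from GENCODE M21 and promoters from RefSeq GRCm38.p6.

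Alternatives were RLE factors, total counts without TMM, a robust fit, no filter, a minimum count of 50, a replicate block, a leukocyte marker covariate (added after seeing the data: without Ly6g), limma-voom (limma 3.58.1), DESeq2 1.42.0, thinning to the lowest total, summed Naip genes and each mouse left out in turn. The procedure was tested on simulated data.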

Additional observations from a re-analysis of the deposited data

Results flagged for a closer look

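Among 35 named genes, 70 sets of mice of 1 diet were searched for a mouse whose gap to the nearest other mouse was above the 95% critical value of Dixon's test for its share of the whole range, and 5 had one. Chance alone flags about 1 set in 20, and no set was of the 10 inflammasome genes themselves. Irf7 was at 296 CPM in FFD mouse 1, against 91.6 to 148 CPM in the other FFD mice. Ripk2 was at 35.5 CPM in FFD mouse 5, against 23.4 to 26.9 CPM in the other FFD mice. Il18 was at 176 CPM in CD mouse 5, against 129 to 142 CPM in the other CD mice, and Serpinb1a was at 587 CPM in the same mouse, against 411 to 455 CPM in the others. CD mouse 5 was also the highest CD mouse for 5 of the 8 inflammasome genes that passed. Nlrp10 was at 2.93 CPM in CD mouse 3, against 4.10 to 4.52 CPM in the other CD mice.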

How the results depend on the processing

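Over 23 alternatives, all 10 inflammasome genes kept their direction, and 201 of their single values stayed on the same side of the threshold, 22 lost the call and 3 gained it. The leukocyte marker covariate changed most: 88 genes were higher and 7 lower, against 2740 and 2792 without it, with 0 of the 10 inflammasome genes and 2 of the 50 pathway genes higher and 0 pathway genes lower. Without Ly6g in the covariate, chosen after seeing the data, 561 genes were higher and 235 lower, 2 of the 10 were higher (Naip1, adjusted p = 0.025, and Casp4, adjusted p = 0.046, from edgeR), and 7 pathway genes were higher and 1 lower. Il1b, which did not pass, turned to a log2 fold change of -0.24 with the covariate and -0.13 with it without Ly6g. Total counts without TMM moved the median log2 fold change of all genes by -0.15 and gave 1636 genes higher and 4863 lower, with 7 of the 10 higher and 1, Pycard, lower. Leaving out single mice gave 2281 to 3086 genes higher and 1983 to 2993 lower, 7 to 8 of the 10 higher and 0 to 1 lower. Same-numbered mice of the 2 diets were not treated as pairs in the main fit. They deviated together with r of -0.28 to 0.23 over 5 pairs. The same-numbered FFD mouse was the closest for CD mice 3 and 5 but not for CD mice 1, 2 and 4. So few pairs cannot settle whether the mice were paired. With a replicate block, 1953 genes were higher and 1829 lower, and 7 of the 10 were higher, Naip6 being lost (adjusted p = 0.16). Summed Naip genes leave no count over the 10 genes and gave no such value. The cause of these shifts was not tested. Fewer counts in FFD mouse 4 limit its precision, and 59-base reads limit the split between Naip copies.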
